A study of Mus musculus with 9 samples.

Results

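Grem1, Nog and Chrd encode secreted proteins that bind bone morphogenetic proteins (BMPs) outside the cell, Id1, Id2, Id3 and Id4 are genes that BMP signalling is known to switch on, and Smad6 and Smad7 encode the inhibitory Smads. These 9 of the 40548 genes in the RNA-seq tables were chosen by name as extracellular inhibitors, direct targets and intracellular inhibitors of 1 pathway. All 9 were found in the tables, and all 9 passed the filter of a mean of at least 1 CPM, a read count scaled to the total of its library. The libraries came from mice labelled C57BL/6, given in the methods as C57BL/6J, and hold calvarial cells, which are bone-forming progenitors and their progeny taken from the skull vault. Day 0 cells had reached confluence and had not been differentiated, and day 4 and day 7 cells had spent that time in mineralization medium, which held ascorbic acid with β-glycerol phosphate and was changed daily. Each of the 3 days had 3 libraries. The labels place the pups at postnatal day 2 to 3, whereas the study's methods give a wider range of ages and pups of both sexes. Cells were taken up with trypsin, after collagenase where they had mineralized, so the harvest may differ between days. The labels name no transgene, whereas the methods name both wild type and ColI-GFP pups for the cell isolation. Nothing in the labels says whether the libraries of a day came from separate litters, so the p-values take these libraries as units and may not cover the spread between litters. The main test also took much of its variance from all genes, as given under the processing.

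BMPs are growth factors that bind pairs of receptor kinases, which phosphorylate Smad1, Smad5 and Smad9. These Smads join Smad4 and enter the nucleus, where they activate the Id genes and also Smad6 and Smad7, whose products feed back to restrain the receptors. Noggin, gremlin and chordin keep BMPs from their receptors, and Id proteins bind partner helix-loop-helix factors and stop them from binding DNA. In bone, BMPs are known for driving mesenchymal cells toward the osteoblast fate.

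Between day 0 and day 7, Nog, Grem1 and Id2 rose, Id1, Id4 and Smad6 fell, and Chrd, Id3 and Smad7 did not pass the test. The Id genes held members that moved apart, whereas none of Nog, Grem1 and Chrd fell, though some other secreted antagonists did, as given below. The test was limma on log2(CPM + 0.5), with Benjamini-Hochberg adjustment over all 12712 genes tested and a threshold of 0.05. By this rule 12.6% of all tested genes were higher at day 7 and 18.6% were lower, against 3 higher and 3 lower among the 9. When the libraries were scaled by median-of-ratios factors, the median log2 fold change of all tested genes moved from -0.11 to -0.01 and the members' calls from 3 higher and 3 lower to 5 higher and 3 lower, since Id3 and Smad7 then passed. In each library's RPKM (CPM divided by the length of the gene model in kilobases), day 7 lay wholly above day 0 for Nog, Grem1 and Id2, a position held by 16.9% of all genes. It lay wholly below day 0 for Id1 and Id4, as for 25.4% of all genes.

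Reads on genes ranged from 7741204 to 14013219 in the day 0 libraries, from 32820610 to 37306090 at day 4 and from 10675858 to 15622755 at day 7. Day 4 was deposited in tables of its own, so table, depth and day cannot be told apart. It entered no test, and its values are given with the direction of a difference and no fold. Day 0 replicate 3 was the shallowest library and received a weight of 0.123 when limma estimated how well each library followed its group. Without it the members' calls were again 3 higher and 3 lower. The osteoblast label fitted the data, as 7 of 8 osteoblast markers were higher at day 7 and their summed level ranged from 1801 to 2515 RPKM at day 0 and from 8042 to 10135 RPKM at day 7.

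The promoters of the members, the 250 bases before the transcription start in the RefSeq entries for GRCm38.p6, were searched on both strands for GGCGCC, an element of G and C that Smad1 and Smad5 are known to bind. The other motif was the Smad box, which reads CAGAC in one direction and in the other reads GTCTG. No match of one motif overlapped a match of the other. Entries were found for 6 of the 9 members. GGCGCC occurred in those of Grem1, Chrd, Id2 and Id4, and in 9.65% of the 32536 promoters of the table. CAGAC occurred in those of Grem1 and Id3, and in 42.2% of all promoters. Shown are the windows of Grem1, which had the largest rise, of Id4, which had the largest fall, of Chrd, whose level hardly moved, and of Smad6, which held neither motif. Capitals mark motif matches.
Grem1, chr2:113758649-113758898, minus strand: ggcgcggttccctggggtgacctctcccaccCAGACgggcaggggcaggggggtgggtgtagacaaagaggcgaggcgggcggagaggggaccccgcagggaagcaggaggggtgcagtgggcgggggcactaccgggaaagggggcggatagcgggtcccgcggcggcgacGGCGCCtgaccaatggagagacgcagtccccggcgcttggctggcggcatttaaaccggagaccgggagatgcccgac
Id4, chr13:48260866-48261115, plus strand: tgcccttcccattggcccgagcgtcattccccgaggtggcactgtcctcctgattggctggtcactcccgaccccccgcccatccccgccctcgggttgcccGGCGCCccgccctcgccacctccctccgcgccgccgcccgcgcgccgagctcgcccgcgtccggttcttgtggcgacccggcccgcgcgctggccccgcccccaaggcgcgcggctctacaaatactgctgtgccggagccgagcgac
Chrd, chr16:20732877-20733126, plus strand: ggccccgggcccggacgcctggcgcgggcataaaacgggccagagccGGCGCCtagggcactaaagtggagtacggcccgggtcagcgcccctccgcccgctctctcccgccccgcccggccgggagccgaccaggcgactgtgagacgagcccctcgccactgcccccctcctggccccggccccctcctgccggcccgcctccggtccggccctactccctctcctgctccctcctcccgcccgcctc
Smad6, chr9:64022060-64022309, minus strand: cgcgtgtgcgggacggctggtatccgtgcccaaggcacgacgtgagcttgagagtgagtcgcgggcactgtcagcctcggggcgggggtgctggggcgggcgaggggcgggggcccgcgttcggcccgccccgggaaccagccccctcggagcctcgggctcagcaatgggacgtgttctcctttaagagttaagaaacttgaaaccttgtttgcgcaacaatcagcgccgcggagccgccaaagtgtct
The GGCGCC match started 78 bases before the transcription start in Grem1, 148 bases before it in Id4 and 203 bases before it in Chrd. One match each was thus present before a gene that rose, a gene that fell and a gene that did not pass the test. All these windows were rich in G and C, with 72.0% in Grem1, 75.6% in Id4, 78.0% in Chrd and 66.8% in Smad6. A match is a description of letters and not a measured binding site.

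**Figure D1:**
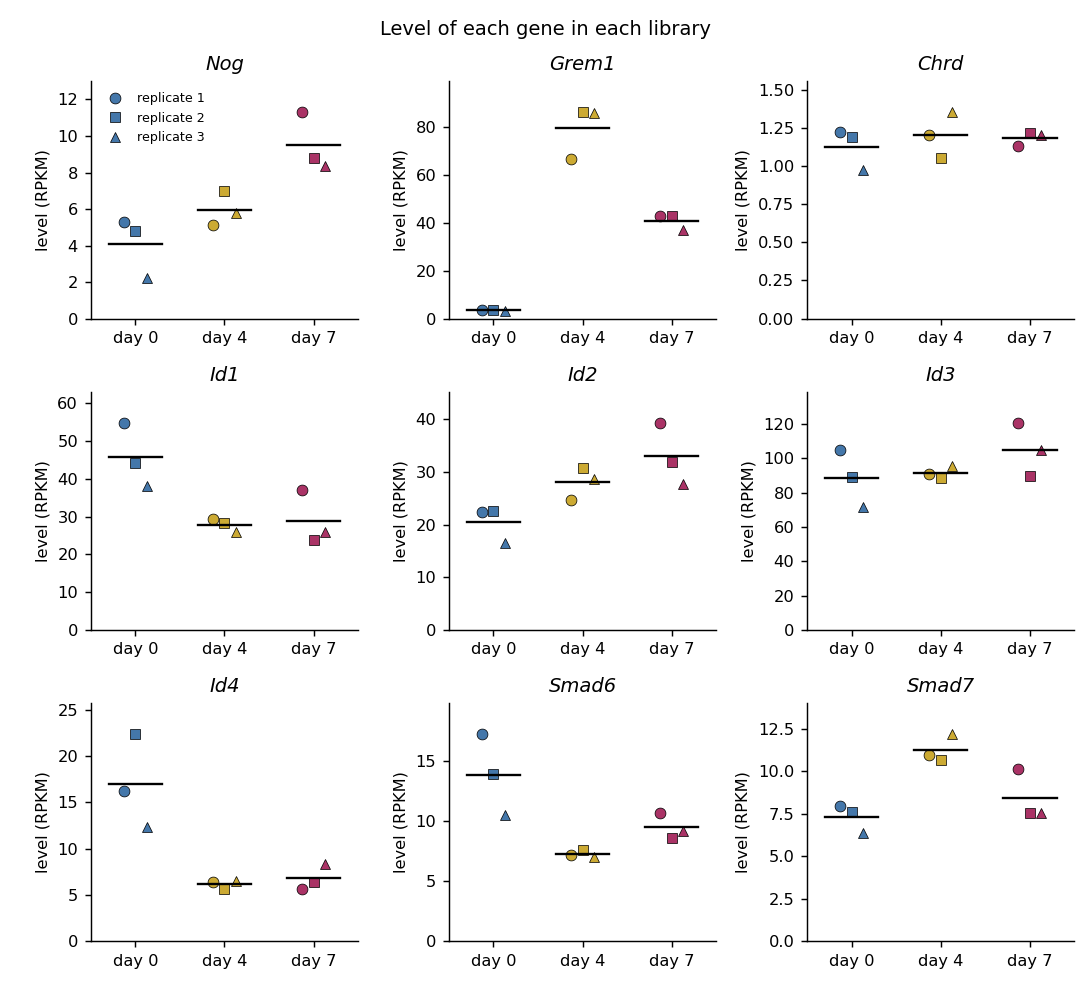
Level of each of the 9 genes in RPKM (vertical axes, each starting at 0) in the 3 libraries of day 0, day 4 and day 7 (horizontal axes). Points are libraries, shaped by replicate number, and bars are means; Grem1 went from 3.48 RPKM at day 0 to 79.8 RPKM at day 4 and 40.9 RPKM at day 7, while Chrd stayed between 0.973 and 1.35 RPKM in all 9 libraries.

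Grem1 (ENSMUSG00000074934, chr2:113746164-113758646, minus strand, GRCm38 with the GENCODE M21 annotation), which encodes gremlin 1, was measured at 3.52, 3.61 and 3.30 RPKM in replicates 1 to 3 of day 0. At day 4 its libraries had 66.9, 86.4 and 86.1 RPKM. At day 7 they had 42.8, 42.9 and 37.0 RPKM. The 3 days did not overlap, with the highest level at day 4. The mean at day 7 was 11.8 times that of day 0. The log2 fold change between day 0 and day 7 was 3.51 (95% confidence interval 3.19 to 3.83, limma adjusted p = 4.47e-24, n = 3 against 3), with every library of day 7 higher. The exact permutation test gave p = 0.1, which is the smallest p that 3 libraries against 3 allow and which Nog, Id1, Id2 and Id4 also had.

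Nog (ENSMUSG00000048616, chr11:89300638-89302332, minus strand, 1 exon) encodes noggin. Its day 0 libraries had 5.30, 4.78 and 2.21 RPKM, the last from 29 reads. They were followed by 5.12, 7.00 and 5.78 RPKM at day 4 and by 11.3, 8.78 and 8.38 RPKM at day 7. Day 4 overlapped day 0, and every day 7 library lay above both earlier days. Between day 0 and day 7 Nog rose by 1.23 on the log2 scale (95% confidence interval 0.79 to 1.67, limma adjusted p = 1.44e-05). Unlike Grem1, whose day 7 libraries all lay below those of day 4, Nog was higher at day 7 than at day 4, at 9.49 ± 1.59 against 5.97 ± 0.955 RPKM (SD, n = 3).

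Chrd (ENSMUSG00000006958, chr16:20733127-20742384, plus strand), the chordin gene, was the lowest of the 9 on every day. Its libraries had 1.22, 1.19 and 0.973 RPKM at day 0, 1.20, 1.05 and 1.35 RPKM at day 4, and 1.13, 1.22 and 1.21 RPKM at day 7. All days overlapped. The log2 fold change of 0.07 had a 95% confidence interval of -0.34 to 0.48 (limma adjusted p = 0.829), so that a change by more than 0.48 on the log2 scale in either direction lay outside it. In GENCODE M21 Chrd shares 239 exonic bases, 3.82% of its own, with Thpo on the opposite strand. Whether counting used the strand is not given in the sources used here, so reads on shared bases cannot be told apart.

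Most of the summed antagonist level at day 4 and day 7 was that of Grem1. Summed over Nog, Grem1 and Chrd, the level was 8.70 ± 1.94 RPKM at day 0, 87.0 ± 11.9 RPKM at day 4 and 51.6 ± 4.44 RPKM at day 7 (SD, n = 3). Nog made up 45.6% ± 10.1 of that sum at day 0 and 18.4% ± 1.98 at day 7, although its own level had risen. Grem1 made up 41.2% ± 8.49 at day 0, 91.7% ± 0.544 at day 4 and 79.3% ± 1.83 at day 7. At day 0 the shares of Nog and Grem1 overlapped, whereas in CPM, which does not divide out gene length, Nog made up 24.2% and Grem1 52.2% at day 0, with every Grem1 library above every Nog library. In RPKM at day 7 the lowest Grem1 share was 77.5%. The share of Chrd went from 13.2% ± 1.58 to 2.31% ± 0.270. A share within a library does not depend on how the library was scaled. For each of the 9 shares within the 3 families, the 3 day 0 libraries did not overlap those of day 7 (exact permutation test, p = 0.1, the smallest possible, and 0.1 after adjustment over the 9 shares). The shares of a family add up to a whole, so these are not 9 separate results. The share of Smad7 mirrors that of Smad6, and a larger Grem1 share leaves less for Nog and Chrd. How often shares in other sets of genes separate in this way was not counted.

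**Figure D2:**
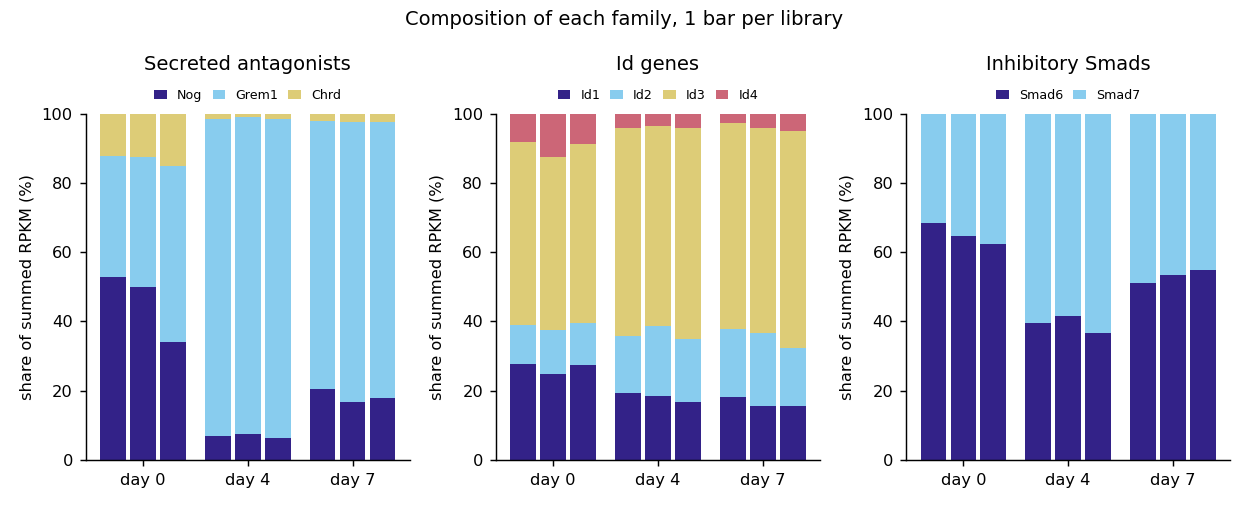
Share of each gene in the summed RPKM of its family (vertical axes, percent) with 1 stacked bar per library, ordered by day and replicate number. The Grem1 part widened from 41.2% at day 0 to 91.7% at day 4, the Id1 and Id4 parts narrowed, and the Smad7 part was widest at day 4, at 60.8%.

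Id1 (ENSMUSG00000042745, chr2:152736251-152737410, plus strand), the first of the dominant-negative helix-loop-helix genes, fell, and was already lower at day 4. Its day 0 libraries had 54.8, 44.3 and 38.2 RPKM, those of day 4 had 29.2, 28.3 and 26.0 RPKM, and those of day 7 had 37.0, 23.8 and 26.0 RPKM. Every day 0 library lay above every later one, though day 7 replicate 1, at 37.0 RPKM, came close to day 0 replicate 3. Day 7 and day 4 overlapped. On the log2 scale the difference between day 0 and day 7 was -0.66 (95% confidence interval -1.01 to -0.31, limma adjusted p = 0.00236).

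Id4 (ENSMUSG00000021379, chr13:48261228-48266026, plus strand) also fell. It had 16.2, 22.4 and 12.4 RPKM at day 0. The libraries of day 4 had 6.36, 5.63 and 6.43 RPKM, and those of day 7 had 5.64, 6.37 and 8.28 RPKM. The days after day 0 overlapped each other and lay below day 0 in every library. From day 0 to day 7 the log2 fold change of Id4 was -1.27 (95% confidence interval -1.66 to -0.88, limma adjusted p = 6.98e-07). Of its exonic bases in GENCODE M21, 4.44% are shared with the opposite-strand transcripts A330033J07Rik and Gm49291. The deposited CPM and RPKM imply a shorter gene model, so the overlap of the model that was counted may differ.

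Id2 (ENSMUSG00000020644, chr12:25093799-25097140, minus strand) went the other way. It had 22.4, 22.6 and 16.6 RPKM at day 0, then 24.7, 30.8 and 28.6 RPKM at day 4, and 39.3, 32.0 and 27.8 RPKM at day 7. Both later days lay above day 0 in every library and overlapped each other. Id2 had a log2 fold change of 0.68 between day 0 and day 7 (95% confidence interval 0.33 to 1.02, limma adjusted p = 0.00182). The call rested in part on day 7 replicate 1, the highest library, without which the log2 fold change was 0.54 and the limma adjusted p was 0.0530.

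Id3 (ENSMUSG00000007872, chr4:136143497-136145755, plus strand) was the most abundant of the 9 on every day. Its libraries had 104.9, 89.0 and 71.8 RPKM at day 0, 90.9, 88.5 and 95.4 RPKM at day 4, and 121, 89.7 and 105 RPKM at day 7. All days overlapped. The log2 fold change was 0.25 (95% confidence interval -0.07 to 0.58, limma adjusted p = 0.241). Id3 passed the threshold when scaled by median-of-ratios factors, where its log2 fold change was 0.36 (limma adjusted p = 0.00980).

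The summed level of the 4 Id genes hardly differed between day 0 and day 7, at 172 ± 30.2 and 174 ± 26.0 RPKM, with 154 ± 2.64 RPKM at day 4, and all days overlapped. Its composition differed between day 0 and day 7 without overlap. Id3 made up 51.5% ± 1.49 of the sum at day 0 and 60.5% ± 2.07 at day 7, and Id2 went from 12.0% ± 0.689 to 19.0% ± 2.25. Id1 went from 26.6% ± 1.57 to 16.5% ± 1.54, and Id4 from 9.88% ± 2.34 to 3.98% ± 1.10. In all 4 genes the day 4 share overlapped the day 7 share and not the day 0 share. At day 0 Id1 lay above Id2 in every library, whereas at day 7 the levels of Id1 and Id2 overlapped.

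Smad6 (ENSMUSG00000036867, chr9:63953076-64022059, minus strand), whose product acts mainly on BMP receptors, had 17.2, 13.9 and 10.5 RPKM at day 0. It had 7.14, 7.62 and 7.02 RPKM at day 4 and 10.6, 8.59 and 9.18 RPKM at day 7. The lowest level was thus at day 4, below every library of the other days, while day 0 and day 7 overlapped. Day 7 differed from day 0 by -0.52 on the log2 scale (95% confidence interval -0.87 to -0.17, limma adjusted p = 0.0173). It did not pass without day 0 replicate 1 (-0.35, limma adjusted p = 0.187), without day 7 replicate 2 (-0.45, limma adjusted p = 0.0854) or without day 7 replicate 3 (-0.50, limma adjusted p = 0.0743), and its exact permutation p was 0.2.

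Smad7 (ENSMUSG00000025880, chr18:75367529-75395935, plus strand), whose product restrains both BMP and TGF-β receptors, had the opposite profile. Its libraries had 7.95, 7.58 and 6.34 RPKM at day 0, 11.0, 10.7 and 12.2 RPKM at day 4, and 10.2, 7.54 and 7.54 RPKM at day 7. Day 4 lay above every library of day 0 and of day 7, which overlapped. The log2 fold change between day 0 and day 7 was 0.20 (95% confidence interval -0.14 to 0.53, limma adjusted p = 0.407). Under median-of-ratios factors Smad7 passed as well, where its log2 fold change was 0.30 (limma adjusted p = 0.0417).

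In RPKM the order of Smad6 and Smad7 was reversed at day 4. Smad6 made up 65.2% ± 3.10 of the sum of both at day 0, 39.2% ± 2.56 at day 4 and 53.1% ± 1.86 at day 7. No library of a day overlapped those of another. In CPM Smad6 made up 57.0% at day 0, 31.4% at day 4 and 44.5% at day 7, so that Smad7 was above Smad6 at day 7 as well. The sum itself overlapped across all days, at 21.2 ± 4.20, 18.5 ± 0.576 and 17.9 ± 2.54 RPKM (SD, n = 3).

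**Figure D3:**
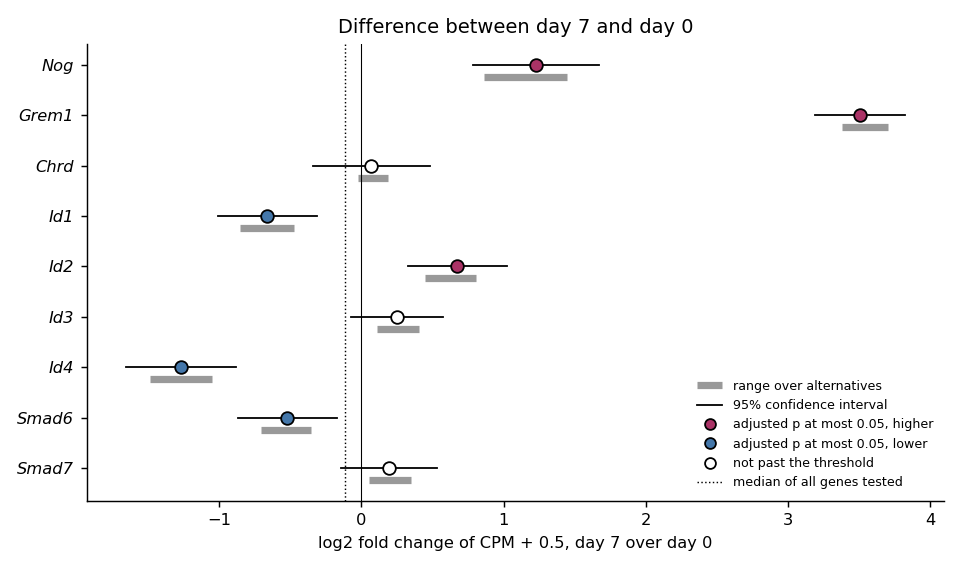
Log2 fold change of CPM + 0.5 between day 7 and day 0 (horizontal axis) for the 9 genes, with 95% confidence intervals as lines, the range over the 18 alternatives as grey bars, and a dotted line at the median of all tested genes, -0.11. Grem1 lies at 3.51 and Id4 at -1.27, and the open points of Chrd, Id3 and Smad7 have intervals that include 0.

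Against day 4 the members again lay in both directions. Grem1, Id2 and Smad7 lay above day 0 in every day 4 library, a position held by 21.4% of all genes that passed the filter. Id1, Id4 and Smad6 lay below day 0, as did 22.0% of all genes. From day 4 to day 7, Nog and Smad6 lay above in every library, against 13.7% of all genes. Grem1 and Smad7 lay below, against 25.0%.

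The order of the levels changed mostly through Grem1. By mean RPKM, day 0 ran Id3, Id1, Id2, Id4, Smad6, Smad7, Nog, Grem1, Chrd, where Id2 and Id4, Id4 and Smad6, and Nog and Grem1 were neighbours whose libraries overlapped. Grem1 ranked 8 at day 0 and 2 at day 4 and day 7. At day 4 Id2 overlapped Id1 and Id4 overlapped Nog. At day 7, Grem1 overlapped Id2 and Id2 overlapped Id1, and Nog, Smad6, Smad7 and Id4 formed a run in which each overlapped the next.

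Around these genes, 53 further genes of the pathway were listed by role, and 49 passed the filter. Of these, 11 were higher and 15 lower at day 7 (median log2 fold change -0.14, against -0.11 over all genes tested), or 15 higher and 13 lower with median-of-ratios scaling. In the main test 12.6% of all genes were higher and 18.6% lower, and the counts of each list below stand against these shares. The other targets of BMP signalling moved both ways, as the Id genes did. Of 7, 3 rose, led by Dlx3, a homeobox factor of bone and tooth, and 3 fell, led by Msx2, a homeobox factor of the skull (median 0.11, also with Dlx3 at its lower bound). Dlx3 had at most 3 reads in each day 0 library and 5.37 ± 0.755 RPKM at day 7, which was at least 49.3-fold higher than the level of 3 reads per library. Msx2 went from 38.0 ± 5.08 to 10.00 ± 1.58 RPKM (log2 fold change -1.91, limma adjusted p = 5.84e-14).

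Of the other secreted antagonists, 10 of 12 passed the filter, 2 rose and 3 fell (median -0.08), or 3 rose and 2 fell with median-of-ratios scaling, and Cer1 had no read in any library. The largest rise was that of Fst, which encodes follistatin, a binder of activins and some BMPs, from 10.9 ± 1.19 to 32.4 ± 2.33 RPKM (log2 fold change 1.55, limma adjusted p = 3.99e-11). The largest fall was that of Sostdc1, an inhibitor of BMP and Wnt signals, from 4.96 ± 0.697 to 2.03 ± 0.787 RPKM (log2 fold change -1.23, limma adjusted p = 2.38e-05). At day 4 Sostdc1 had 9.98 ± 2.95 RPKM. Like Grem1 and Smad7 it was thus highest at day 4, with every library above those of the other days.

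Of the 8 tested ligands, 4 rose and 1 fell (median 0.22), with Gdf5 under the filter. Bmp3, which encodes a ligand known to oppose other BMPs, went from 0.915 ± 0.182 to 34.0 ± 4.11 RPKM (log2 fold change 5.0, limma adjusted p = 7.97e-28). Bmp5 fell by 0.63 on the log2 scale (limma adjusted p = 0.0477), a call lost in 9 of the 17 alternatives that tested it. Among the rises that of Gdf6 (0.54, limma adjusted p = 0.0477) was lost in 8 of 18 alternatives, so that 3 rose and not 4. Bmp8a rose as Bmp3 did (log2 fold change 4.63, limma adjusted p = 7.89e-24). Bmp2 rose by less (log2 fold change 1.68, limma adjusted p = 1.49e-10), whereas Bmp4 did not pass (-0.15, limma adjusted p = 0.523). Summed over the listed ligands, the level ranged from 25.1 to 31.7 RPKM at day 0, from 63.6 to 68.4 RPKM at day 4 and from 73.6 to 86.6 RPKM at day 7. This sum does not stand for each ligand. At day 7 it included a mean of 34.0 RPKM of Bmp3, the ligand known to oppose other BMPs, so it is no measure of BMP supply. The sum of Nog, Grem1 and Chrd ranged from 6.48 to 10.0 RPKM at day 0, from 73.2 to 94.4 RPKM at day 4 and from 46.6 to 55.2 RPKM at day 7. The ligand sum and this sum were both higher in every day 7 library than in any day 0 library. The 12 other secreted antagonists summed to 128 to 155 RPKM at day 0, 167 to 190 RPKM at day 4 and 150 to 161 RPKM at day 7.

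None of the 8 receptor genes rose and 2 fell (median -0.19), of which Acvr2a, a type II receptor for activins and BMPs, fell most, from 10.7 ± 2.14 to 3.23 ± 0.185 RPKM (log2 fold change -1.68, limma adjusted p = 2.01e-11). Over all tested genes 12.6% were higher and 18.6% lower, so a list this short can hold no rise at these shares. The same goes for the inhibitors of Smad signalling below. The count of 2 lower receptors became 4 without day 0 replicate 3, and 1 without day 0 replicate 2, without any 1 of the day 7 libraries and with median-of-ratios scaling, edgeR or voomWithQualityWeights. Library weights gave 1 higher and 4 lower. Of the 4 Smads that carry the signal, Smad9 rose, from 1.36 ± 0.0752 to 2.65 ± 0.747 RPKM (log2 fold change 0.87, limma adjusted p = 0.000633), and the other 3 did not pass (median 0.21), although Smad1 did under median-of-ratios scaling. Of 7 other inhibitors of Smad signalling none rose and 2 fell (median -0.28), with Ski, a corepressor that binds Smads, at 44.6 ± 1.76 and 27.4 ± 3.25 RPKM (log2 fold change -0.71, limma adjusted p = 0.000241). That none rose was lost under edgeR, DESeq2, voomWithQualityWeights and median-of-ratios factors, each with 2 higher (Skil and Tob1) and 3 lower. It was also lost with library weights, which gave this list 1 higher and 4 lower. Without day 0 replicate 2 or day 7 replicate 3 only 1 was lower, and without day 0 replicate 3 the list had 1 higher and 3 lower.

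Among the helix-loop-helix genes, the kind of factor that Id proteins bind, 5 of 6 were tested, of which 1 rose and 4 fell (median -0.51). Hes1, a repressor downstream of Notch, rose from 9.14 ± 1.01 to 14.8 ± 2.17 RPKM (log2 fold change 0.68, limma adjusted p = 0.00175). Tcf4, an E protein, fell from 21.1 ± 2.16 to 12.3 ± 0.605 RPKM (log2 fold change -0.77, limma adjusted p = 6.63e-05). Tcf3, which had 265 RPKM in day 0 replicate 3 against 107 and 84.1 RPKM in the other day 0 libraries, was named after its values were seen. Without that library the list held 1 higher and 3 lower genes, and without day 0 replicate 2 or day 7 replicate 1 it held 1 higher and 2 lower. The fall of Tcf3 (log2 fold change -0.59, limma adjusted p = 0.0324) was lost in 10 of 18 alternatives. Its log2 fold change ranged from -0.92 to 0.09 over the 18. The RPKM table, robust variances and DESeq2 were among those that lost it, each leaving 1 higher and 3 lower genes.

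**Figure D4:**
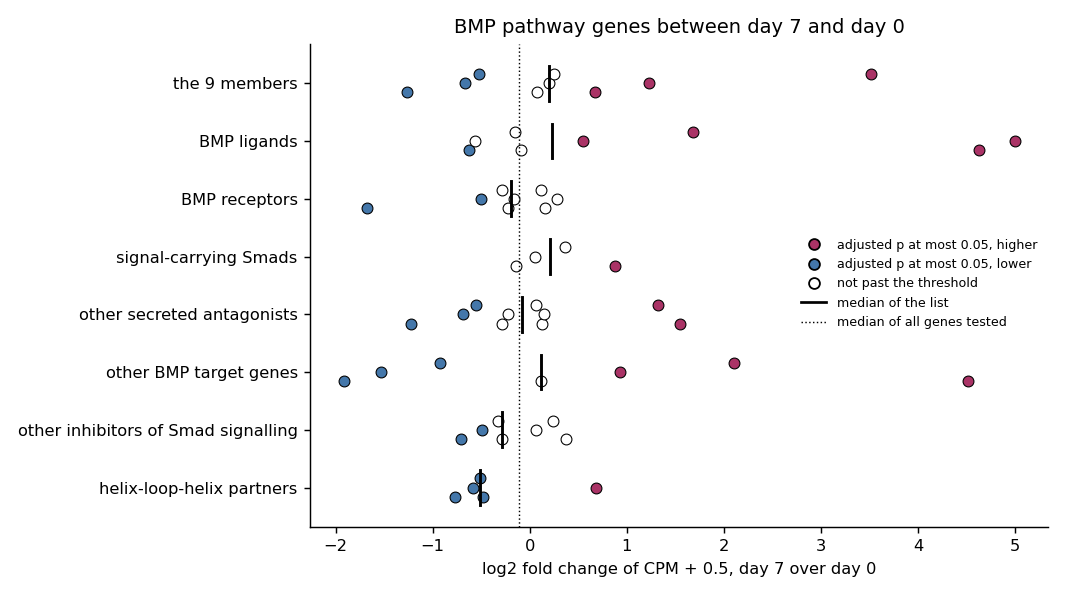
Log2 fold change of CPM + 0.5 between day 7 and day 0 (horizontal axis) for each tested gene of the 9 members and of 7 pathway lists (rows), with filled points past the adjusted p of 0.05, short black lines at list medians and a dotted line at the median of all tested genes. The ligand and target rows reach to 5.0 (Bmp3) and 4.51 (Dlx3), while none of the 8 receptors rose past the threshold, against 12.6% of all tested genes.

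In bulk RNA, fewer cells of a type and less RNA per cell cannot be told apart, so the marker lists are given beside these results. All 6 early response genes, known to react to cell dissociation, were above day 0 at day 4 in every library and 5 of them below day 4 at day 7, with summed levels of 52.7 to 61.3, 121 to 155 and 61.2 to 83.5 RPKM. That profile moved with those of Grem1 and Smad7, and its part in them was not tested. Macrophage markers were higher at day 7 in 5 of 5 (41.9 to 72.1 RPKM summed at day 0 and 77.3 to 102 RPKM at day 7), which moved with Nog, Grem1 and Id2. Chondrocyte markers were lower in 3 of 4 tested and higher in 1 (158 to 455 RPKM at day 0 and 43.9 to 124 RPKM at day 7), and markers of dividing cells were lower in 3 of 5 (57.2 to 94.7 RPKM and 45.4 to 54.5 RPKM), both beside the falls of Id1, Id4 and Smad6. Their part in these results was not tested. Other lists were low but some of their members also moved with Nog, Grem1 and Id2. Both tested skeletal muscle markers of 5 were higher at day 7 (1.75 to 3.18 RPKM summed at day 0, 5.62 to 9.35 RPKM at day 4 and 4.04 to 7.74 RPKM at day 7), with Ckm at 0 at day 0 and day 7. The 1 tested endothelial marker of 6, Esam, was higher (0.142 to 0.546 RPKM summed at day 0 and 0.979 to 1.79 RPKM at day 7), with Tie1 at 0 in all libraries. Of the 3 tested adipocyte markers of 5, 1 was higher (8.61 to 14.0 RPKM summed at day 0 and 10.2 to 11.5 RPKM at day 7). The part of these lists was not tested either.

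The genes whose profiles lay closest to each member, by the root mean square distance between centred log2(CPM + 0.5) values over the 9 libraries and among 12782 genes, differed from member to member. The closest included Klhl30 and Rgs16 for Grem1, at a distance of 0.39 for Klhl30, and were Hacd1, Plekho1 and Xylt1 for Nog, at 0.16 for Hacd1. They were Gnl2, Hs2st1 and Cnih4 for Chrd, at 0.06 for Gnl2, a gene whose mean was also nearly level, at 15.7, 16.9 and 16.4 RPKM on day 0, day 4 and day 7. Among the Id genes, Id1 was followed most closely by Nid2, Ccnb2-ps and Rdh10 (0.10 for Nid2), and Id2 by Lmo4, Rnf19a and Trmo (0.07 for Lmo4). Id3 was followed by Map3k10, Fem1a and C1qtnf12 (0.04 for Map3k10), and Id4 by Mgst1, En1 and Tmpo (0.17 for Mgst1). En1, a homeobox gene, had 14.5 RPKM at day 0, 5.99 RPKM at day 4 and 5.93 RPKM at day 7. Smad6 lay closest to CAAA01147332.1, Kif22 and Arl6ip1 (0.10 for the first), and Smad7 to Ppp1r18, Atp10a and Taf3 (0.08 for Ppp1r18). No member was among the 3 closest genes of another. Genes that share libraries also share depth and scaling, so the distances describe these 9 libraries.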

How the data were processed

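RNA-seq of 9 libraries was used, 3 each of day 0, day 4 and day 7, grouped by their labels. Ribosomal RNA was depleted per the labels. The authors aligned reads to GRCm38 (Ensembl) with STAR 2.0.4b and counted uniquely aligned reads per gene with featureCounts. The strand setting of the counting is not given in the sources used here. The authors deposited CPM (reads per gene relative to all reads on genes of a library) and RPKM (CPM per kilobase of gene model). Where a gene had several lines, these were the same and 1 was kept. Whole reads were recovered from the CPM, since 100% of them lay within 0.1 read of a whole number.

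The day 0 and day 7 libraries were compared by limma 3.58.1 in R 4.3.3, using log2(CPM + 0.5) and a variance trend. The fit held the 12712 genes whose mean over these 6 libraries reached 1 CPM, and it was tested on simulated data. The variance prior carried 42.9 degrees of freedom against 4 of the libraries, so the p-values lean on the trend over all genes. Levels are RPKM, means ± SD, n = 3. Single values had an exact two-sided permutation test. The floor was 3 reads per library, for counting error only, since PCR copies were not marked. Members and lists were chosen with earlier results of these data known. The text names all 9 members, in each pathway list the genes that rose and fell most among those called, and the 3 genes with the closest profile to each member, of which 1 is not reported here. Alternatives were other scalings, pseudocounts, filters, the RPKM table, robust variances, library weights, edgeR 4.0.16, DESeq2 1.42.0 and voomWithQualityWeights on recovered reads, a replicate block and leaving out each library. Coordinates came from GENCODE M21 and promoters from RefSeq, and the windows shown were those outside the annotated GENCODE gene. For Chrd, Id2 and Id4 the deposited CPM and RPKM imply shorter gene models than GENCODE M21 gives. Their RPKM levels, shares and ranks depend on those shorter models. All 18 columns of values matched a sample.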

Additional observations from a re-analysis of the deposited data

How the results depend on the processing

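The members called higher numbered 5 in place of 3 with median-of-ratios scaling, with edgeR, with DESeq2 and with voomWithQualityWeights on recovered reads, Id3 and Smad7 being added, and 4 with library weights, Id3 being added. With median-of-ratios scaling 2843 of all tested genes were higher and 2611 lower, against 1602 and 2369. The counts were 2818 and 2650 with edgeR, 2581 and 2329 with DESeq2 and 3148 and 2972 with voomWithQualityWeights. With library weights 2225 were higher and 5861 lower, and without day 0 replicate 3, 1603 were higher and 4696 lower. Without day 0 replicate 2, 1527 were lower, and without day 7 replicate 2, 1548 were lower. Leaving out 1 library gave 2 to 3 members higher and 2 to 3 lower. The log2 fold change of Chrd turned to -0.000264 with library weights and to -0.024 without day 0 replicate 3 (range -0.024 to 0.13 over the libraries left out in turn), and was called under none of the 18 alternatives. Nog, Grem1, Id1 and Id4 kept their call in all 18. With CPM in place of RPKM, the share of Id1 fell by 7.87 percentage points (10.1 with RPKM), that of Nog fell by 15.8 (27.2) and that of Chrd fell by 20.03 (10.9). Deviations of same-numbered libraries of day 0 and day 7 correlated at -0.02, -0.18 and -0.44, which gave no sign of pairing by replicate number. Deviations within 3 libraries a day also carry depth and scaling, so they cannot settle whether same-numbered libraries came from the same pups. With the replicate block 3 members were higher and 3 lower. The smallest permutation p of 0.1 and 3 libraries a day limit what could pass.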
